A study of Mus musculus with 16 samples.

Results

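Glutamate, proline and asparagine are made and broken down by a small set of linked enzymes, and the genes of 9 of them were chosen by name: Aldh18a1, Pycr1, Prodh, Asns, Got1, Got2, Gpt2, Glul and Glud1. Of these, 8 had at least 1 array probe whose RefSeq accession led to the gene symbol, out of 22911 symbols with such a probe on the array. No probe was matched to Pycr1, and Pycr1 was not analysed here. By RefSeq (GRCm38.p6), the measured genes lie at chr6:7675165-7693209 (Asns), chr19:40550257-40588463 (Aldh18a1), chr16:18071726-18089283 (Prodh), chr1:153899929-153909723 (Glul), chr14:34310727-34345033 (Glud1), chr19:43499752-43524605 (Got1), chr8:95864133-95888401 (Got2) and chr8:85492576-85528902 (Gpt2). All 8 genes measured were well above background on all 16 arrays, so none entered the tests only through the group in which it was high. RNA from brown adipose tissue (BAT) and gonadal white adipose tissue (gWAT) was measured on 1-colour Agilent arrays, 4 for each tissue and genotype. The genotypes were Adipo-Pgam1 KO mice, called KO from here on, and their littermates, called controls. KO mice carried floxed Pgam1, which encodes the glycolytic enzyme phosphoglycerate mutase 1, together with Adipoq-Cre, a Cre recombinase driven by the adiponectin promoter and thus active in adipocytes. The littermates, labelled wild-type, carried the same floxed alleles without Cre, so that the floxed alleles were common to all 4 groups. The mice were males of the strain labelled C57BL/6NCrSlc, fed normal chow. They were 16 weeks of age, except that replicate 4 of the KO mice was labelled 14 weeks in both tissues. The labels do not say whether a BAT array and a gWAT array came from the same mouse.

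Glutamate is a substrate or product of most of these reactions. Aldh18a1 encodes the mitochondrial enzyme that turns glutamate into pyrroline-5-carboxylate, which the Pycr enzymes reduce to proline, and Prodh encodes proline dehydrogenase, which begins the breakdown of proline in mitochondria. Asns makes asparagine from aspartate, taking the nitrogen from glutamine. The aspartate aminotransferases Got1, in the cytosol, and Got2, in mitochondria, and the mitochondrial alanine aminotransferase Gpt2 pass amino groups between glutamate and aspartate or alanine. Glul encodes glutamine synthetase and Glud1 glutamate dehydrogenase, the mitochondrial enzyme that links glutamate to the TCA cycle. Adipose tissue is known to release glutamine. Asns is a well known target of the transcription factor ATF4, which is made in larger amounts when amino acids run short.

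The sequences before the start sites of the 8 genes were searched for TGATGNAA, the core of the element through which C/EBP and ATF proteins act, on both strands of a window from 250 bases before to 50 bases after the start (RefSeq, GRCm38.p6). It was found in 2 of the 8 genes, Asns and Got1, and in 4.51% of the 27025 genes with such a window, or 3.97% of the 32851 windows. The upstream 250 bases of those 2 genes are given here with the match in capitals, and those of Aldh18a1, the gene with the largest genotype difference of the 8, beside them. They run 5′ to 3′ on the strand of the gene, which is the minus strand for all 3, at chr6:7693210-7693459 for Asns, chr19:43524606-43524855 for Got1 and chr19:40588464-40588713 for Aldh18a1.
Asns: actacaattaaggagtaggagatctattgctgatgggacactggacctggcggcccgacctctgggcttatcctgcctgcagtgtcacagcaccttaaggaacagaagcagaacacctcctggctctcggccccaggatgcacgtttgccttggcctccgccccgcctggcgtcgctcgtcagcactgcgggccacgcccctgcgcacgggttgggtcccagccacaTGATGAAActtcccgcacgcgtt
Got1: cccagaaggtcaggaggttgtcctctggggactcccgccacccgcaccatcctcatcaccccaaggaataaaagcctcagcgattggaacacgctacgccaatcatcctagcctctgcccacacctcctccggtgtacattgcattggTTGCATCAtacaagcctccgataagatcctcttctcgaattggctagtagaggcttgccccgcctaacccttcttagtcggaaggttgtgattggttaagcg
Aldh18a1: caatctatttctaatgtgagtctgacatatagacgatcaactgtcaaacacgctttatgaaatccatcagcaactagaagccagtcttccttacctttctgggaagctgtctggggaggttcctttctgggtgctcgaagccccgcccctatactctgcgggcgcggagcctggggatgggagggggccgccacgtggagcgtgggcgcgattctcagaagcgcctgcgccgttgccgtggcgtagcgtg
The match began at position -23 from the start of Asns on the strand of the gene, with the letters TGATGAAA. In Got1 it lay on the opposite strand, so that it reads TTGCATCA here, and its first printed base lay at position -102. The letters were not found in the windows of Aldh18a1, Prodh, Glul, Glud1, Got2 and Gpt2. A match is a match of letters and no measure of binding.

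The unit of all levels given here is the log2 of a probe's signal over the 75th percentile of its array, called the log2 level below, and a level of 0 is a signal at that percentile. The brightest probe of a gene stood for it. That percentile was a signal of 401.3 to 451.3 in control BAT and of 650.2 to 916.2 in KO BAT, and at most 62.2% of the probes of an array were well above background. The number of arrays limits the precision. Pgam1 was at 7.94 ± 0.11 (SD, n = 4) in control BAT and at 6.20 ± 0.17 (SD, n = 4) in KO BAT. In control gWAT its mean was 5.36 ± 0.29 (SD, n = 4), and in gWAT labelled KO its mean was 6.31 ± 0.25 (SD, n = 4), higher where the labels place the deletion (limma, adjusted p = 0.0139). The dimmer Pgam1 probe differed by -1.65 in BAT and by 1.02 in gWAT, without overlap in either. Whether the probes lie in the deleted sequence is not given in the sources used here. Each direction in gWAT therefore rests on the label. The arrays lay on 3 slides. In each tissue, all 4 KO arrays shared a slide with 1 control array, and the other 3 control arrays lay on another slide, so that a comparison within a slide rested on 1 control array. Within the slide, Pgam1 differed by -1.62 in BAT and by 0.75 in gWAT, where it did not pass the threshold. Nothing states that the replicates of a group came from separate mice, and the p-values measure the spread between these arrays.

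In BAT, 7 of the 8 genes differed between genotypes (limma, adjusted p under 0.05 over all genes tested), of which Aldh18a1, Got1, Got2 and Gpt2 were higher and Prodh, Glul and Glud1 lower in KO mice. Of all 14285 genes tested in BAT, 61.4% passed, 27.4% higher and 34.0% lower, so that a high count was common to the tissue. Control and KO ranges were apart in 7 of the 8 genes, the same that passed, and in 57.0% of all genes tested. The median log2 difference was 0.60 over the 8 genes and -0.083 over all genes tested.

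Aldh18a1, at the entry to proline synthesis, had log2 levels of -2.25, -2.80, -2.53 and -2.96 in control BAT and of 2.03, 2.09, 2.38 and 1.74 in KO BAT. Each control array was below the 75th percentile and every KO array above it. The log2 difference was 4.69 (standard error 0.19, adjusted p = 1.72e-06), a 25.9-fold rise. It was 5.02 within the slide. In gWAT the log2 levels were -0.98, -1.33, -1.29 and -1.50 in controls and 0.71, -0.036, 0.66 and 0.30 in gWAT labelled KO. The groups did not overlap there either. It rose by 1.68 in log2 (limma, standard error 0.20, adjusted p = 0.00242), or 3.21-fold, and by 1.91 within the slide (adjusted p = 0.0382). The array has 1 probe for Aldh18a1, annotated to 1 of its 2 curated transcripts. Whether it also reads the other transcript was not examined, so changes of the 2 transcripts cannot be told apart from these values.

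Prodh, which acts in the opposite direction by opening the breakdown of proline, moved down in both tissues. In BAT, its log2 levels were 3.78, 4.69, 3.85 and 4.15 in controls and 2.21, 1.60, 2.61 and 1.84 in KO mice. In gWAT, they were 3.91, 4.63, 3.94 and 4.58 in controls and 2.45, 2.63, 3.07 and 2.28 in gWAT labelled KO. All KO arrays were thus below all control arrays of their tissue. The log2 difference was -2.05 in BAT (standard error 0.26, adjusted p = 2.12e-04), or 0.241 of the control level, and -1.66 in gWAT (standard error 0.24, adjusted p = 0.00467), or 0.317 of the control level. Within the slide it was -2.08 in BAT and -1.97 in gWAT, where it no longer passed the threshold (adjusted p = 0.0526).

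**Figure D1:**
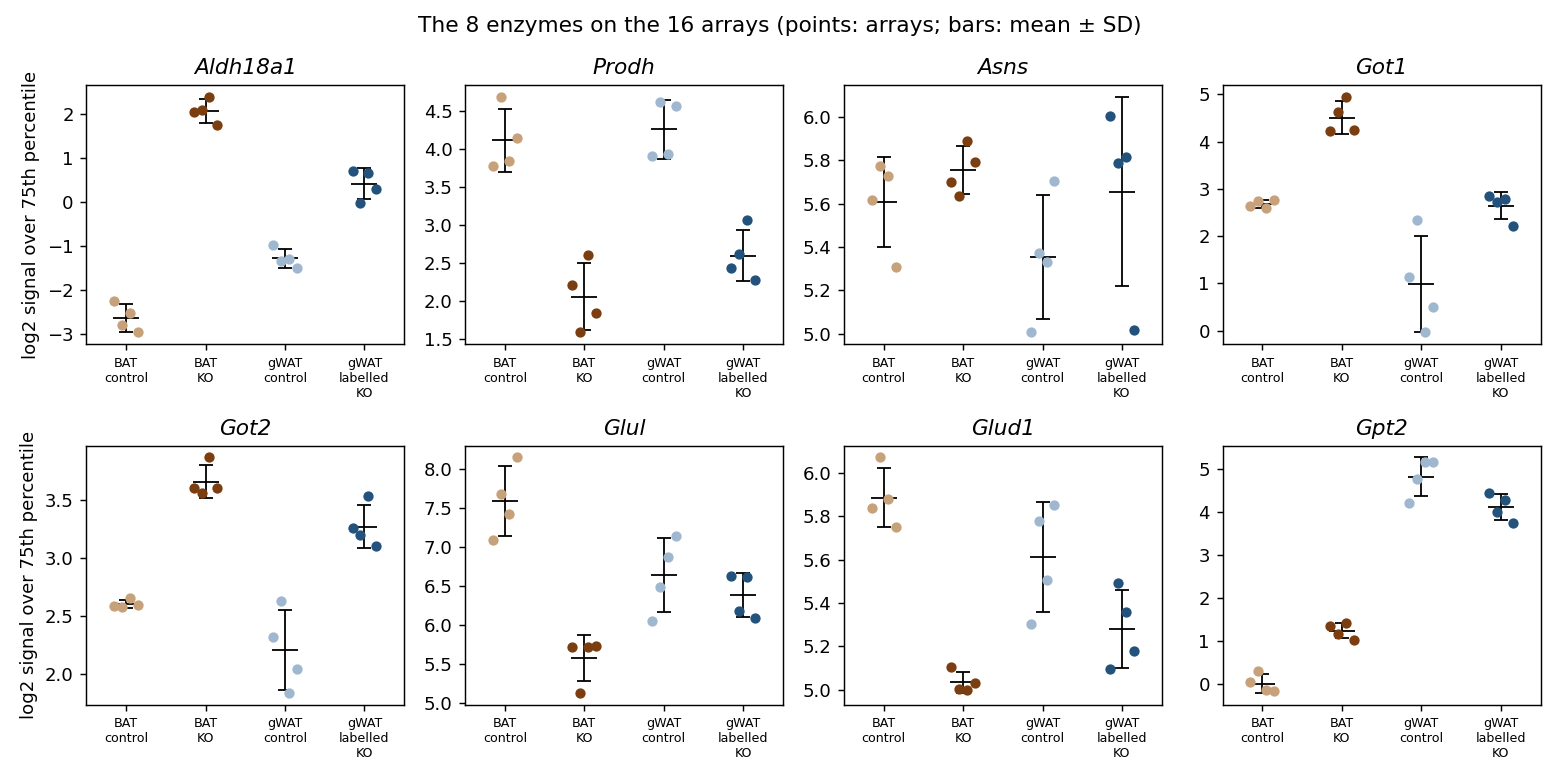
Log2 signal over the 75th percentile of the array (y axis, scaled separately for each gene) for 8 enzymes of glutamate, proline and asparagine metabolism on the 16 arrays. Points are arrays, and bars are the mean and SD of 4 arrays in BAT and gWAT of controls and of KO mice. Aldh18a1 was higher and Prodh lower on every KO array than on every control array of the same tissue, whereas the groups overlapped for Asns in both tissues.

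Asns, asparagine synthetase, did not pass the test in either tissue. Its log2 levels in BAT were 5.62, 5.77, 5.73 and 5.31 in controls and 5.70, 5.64, 5.89 and 5.79 in KO mice. The groups overlapped, with a log2 difference of 0.15 (standard error 0.12, adjusted p = 0.329). The lowest of the 8 arrays was control replicate 4, the only control on the slide of the KO arrays, and within the slide the difference was 0.45 and passed the threshold (adjusted p = 0.0411). Asns also passed as higher in BAT under quantile normalization (0.36), spike-in scaling (0.69) and normexp background correction (0.34), but as lower when arrays were scaled by Actb and Rplp0 (-0.44), so its direction in BAT depended on the scaling. The dimmer Asns probe differed by 0.26 in BAT, without overlap. In gWAT, the log2 levels were 5.01, 5.37, 5.33 and 5.71 in controls and 6.00, 5.79, 5.82 and 5.02 in gWAT labelled KO. Labelled KO replicate 4 lay at the level of the lowest control, whereas the other 3 lay above all controls. The log2 difference was 0.30 (standard error 0.24, adjusted p = 0.403) and -0.050 within the slide, but passed as higher with spike-in scaling (0.74, adjusted p = 0.00566).

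Both aspartate aminotransferases were higher in KO arrays of either tissue. Got1, the cytosolic enzyme, had log2 levels of 2.63, 2.73, 2.60 and 2.76 in control BAT and of 4.22, 4.62, 4.95 and 4.23 in KO BAT. The controls lay within a narrow range, and all KO arrays were above it. Got1 rose by 1.83 in log2 (limma, standard error 0.17, adjusted p = 3.89e-05), or 3.55-fold, and by 1.75 within the slide. In gWAT, Got1 was at 1.14, 2.34, -0.028 and 0.51 in controls and at 2.85, 2.71, 2.79 and 2.22 in gWAT labelled KO. The controls were spread widely, and control replicate 2 lay above labelled KO replicate 4, the array labelled 14 weeks, so that the groups overlapped. The log2 difference of 1.66 (standard error 0.45, adjusted p = 0.0372) passed the threshold without control replicate 2 or without labelled KO replicate 4, but not without any 1 of the other 6 arrays (adjusted p from 0.0632 to 0.0917), nor within the slide (2.14, adjusted p = 0.183), with Actb and Rplp0 scaling (adjusted p = 0.0537) or without a filter on dim probes (adjusted p = 0.0844). The second Got1 probe differed by 1.62 in both tissues and did not overlap in gWAT.

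Got2, the mitochondrial enzyme, was at 2.59, 2.58, 2.66 and 2.60 in control BAT and at 3.60, 3.56, 3.87 and 3.60 in KO BAT. In gWAT, it was at 2.32, 2.63, 1.84 and 2.04 in controls and at 3.26, 3.20, 3.53 and 3.11 in gWAT labelled KO. The KO arrays were above the controls in either tissue without overlap. The log2 difference was 1.05 in BAT (standard error 0.097, adjusted p = 4.15e-05) and 1.07 in gWAT (standard error 0.19, adjusted p = 0.00986), or 2.07-fold and 2.09-fold. Within the slide it was 1.06 in BAT and 1.23 in gWAT, where it did not pass (adjusted p = 0.106).

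Gpt2, the mitochondrial alanine aminotransferase, moved up in BAT. Its log2 levels in BAT were 0.067, 0.30, -0.14 and -0.16 in controls and 1.36, 1.18, 1.42 and 1.03 in KO mice, without overlap. This was a rise of 1.23 in log2 (limma, standard error 0.14, adjusted p = 1.06e-04), or 2.34-fold. In gWAT, Gpt2 was at 4.23, 4.78, 5.16 and 5.17 in controls and at 4.46, 4.01, 4.28 and 3.76 in gWAT labelled KO. Control replicate 1 lay within the range of the labelled KO arrays, and the other 3 controls lay above it. The log2 difference of -0.71 (standard error 0.24, adjusted p = 0.0766) missed the threshold, but passed without that control array (-0.91, adjusted p = 0.0270), under quantile normalization, under Actb and Rplp0 scaling, and with the spread taken over all 16 arrays. Within the slide the difference was 1.41 in BAT and -1.04 in gWAT (adjusted p = 0.215), and the second Gpt2 probe differed by 0.87 and -1.02.

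Glul and Glud1, which act on glutamate itself, were lower in KO BAT. Glul had log2 levels of 7.09, 7.68, 7.43 and 8.14 in control BAT and of 5.73, 5.13, 5.73 and 5.74 in KO BAT. The highest KO array was below the lowest control, with a log2 difference of -2.01 (standard error 0.24, adjusted p = 1.29e-04) or 0.249 of the control level, and -2.56 within the slide. In gWAT, Glul was at 6.06, 6.49, 6.87 and 7.14 in controls and at 6.63, 6.18, 6.61 and 6.09 in gWAT labelled KO. The groups overlapped, and the log2 difference of -0.26 (standard error 0.25, adjusted p = 0.493) was within the spread of the arrays. The other 2 Glul probes differed by -2.02 and -2.20 in BAT, but by 0.32 and 0.40 in gWAT, so the probes disagreed in sign in gWAT.

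Glud1 was at 5.84, 6.07, 5.88 and 5.75 in control BAT and at 5.10, 5.0, 5.0 and 5.03 in KO BAT. The KO arrays were close together and all below the controls. The log2 difference was -0.85 (standard error 0.097, adjusted p = 1.11e-04), or 0.554 of the control level, and -0.72 within the slide. It fell short of the threshold with spike-in scaling (-0.31, adjusted p = 0.0748). In gWAT, Glud1 was at 5.30, 5.78, 5.51 and 5.85 in controls and at 5.09, 5.49, 5.36 and 5.18 in gWAT labelled KO, with overlap (-0.33, standard error 0.16, adjusted p = 0.185), though it passed as lower with quantile normalization (-0.59, adjusted p = 0.0224). The second Glud1 probe differed by -0.88 in BAT and -0.050 in gWAT.

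In gWAT as a whole, 4 of the 8 genes passed the threshold, with Aldh18a1, Got1 and Got2 higher and Prodh lower in gWAT labelled KO. Of all 14150 genes tested there, 17.9% passed, 10.0% higher and 7.86% lower. Control and labelled KO ranges were apart in 3 of the 8 genes, as in 24.2% of all genes tested, and the median log2 difference was 0.021 over the 8 genes and 0.048 over all. With the slide as a fixed block, 1 of the 8 passed in gWAT, Aldh18a1, and 184 of all genes tested.

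**Figure D2:**
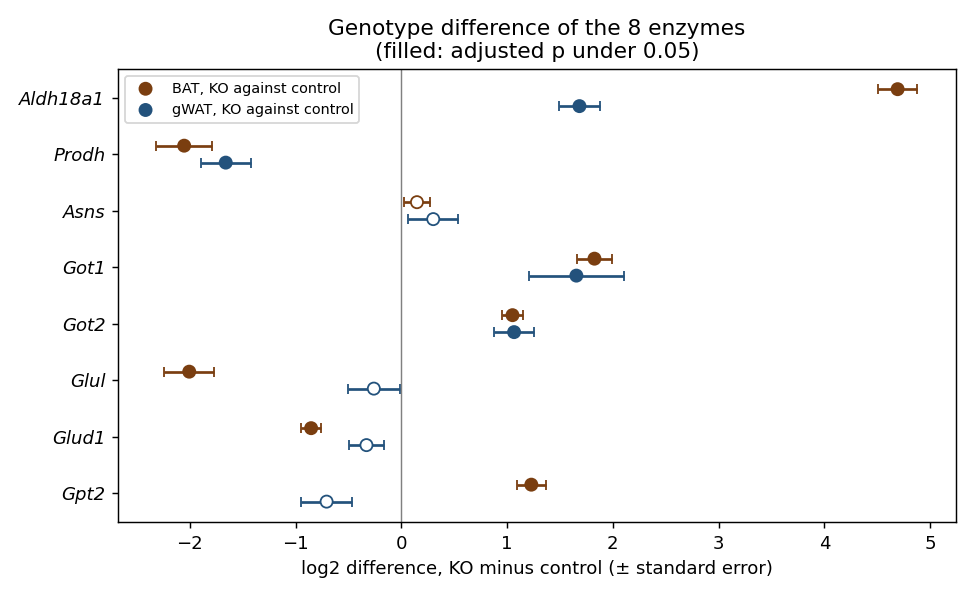
Log2 difference between KO and control arrays (x axis, with standard error) for each of the 8 enzymes in BAT and gWAT. Filled points passed an adjusted p of 0.05 in limma. Aldh18a1 lay at 4.69 in BAT and 1.68 in gWAT, Got1 and Got2 lay at close values in both tissues, and Gpt2 lay on opposite sides of 0.

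Whether a genotype difference was itself different between the tissues was tested as the interaction in a fit of all 16 arrays, with the change in gWAT minus the change in BAT. It passed the threshold for 4 of the 8 genes, whereas 48.3% of the 14820 genes tested passed, 27.4% with a larger and 21.0% with a smaller value in gWAT. The rise of Aldh18a1 was larger in BAT, by 3.01 on the log2 scale (interaction -3.01, standard error 0.28, adjusted p = 5.77e-06). Gpt2, higher in BAT and not past the threshold in gWAT, had an interaction of -1.94 (standard error 0.29, adjusted p = 1.30e-04). The fall of Glul in BAT was not matched in gWAT, with an interaction of 1.75 (standard error 0.36, adjusted p = 0.00127). The interaction of Glud1 was 0.52 (standard error 0.18, adjusted p = 0.0289). It lost the threshold on leaving out BAT control replicate 2, BAT KO replicate 2, gWAT control replicate 1 or 3, or labelled KO replicate 2 or 3 of gWAT, with values from 0.42 to 0.51, and was 0.42 with spike-in scaling, 0.14 with the slide as a block and -0.010 under quantile normalization. The interaction was not past the threshold for Asns (0.15, standard error 0.28), Prodh (0.39, standard error 0.38), Got1 (-0.17, standard error 0.52) and Got2 (0.014, standard error 0.21).

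The level of each gene in the BAT and gWAT of control mice was compared in the same fit. Of the 8 genes, 5 differed between the depots, against 67.7% of the 14299 genes tested, 37.0% higher in BAT and 30.7% lower. Gpt2 had the largest difference, between 0.018 ± 0.22 (SD, n = 4) in BAT and 4.84 ± 0.44 (SD, n = 4) in gWAT. It was 28.2-fold lower in BAT, with a log2 difference of -4.82 (standard error 0.21, adjusted p = 1.68e-10), and its second probe differed by -4.53. Aldh18a1 was also lower in BAT, at -2.63 ± 0.31 (SD, n = 4) against -1.28 ± 0.21 (SD, n = 4), a log2 difference of -1.36 (adjusted p = 2.44e-05). The depots did not overlap for these 2 genes, nor for Got1, which was higher in BAT by 1.69 (standard error 0.36, adjusted p = 8.06e-04). In all, 3 of the 8 genes did not overlap, against 60.8% of all genes tested. Glul was higher in BAT by 0.94 (standard error 0.25, adjusted p = 0.00421), but by 0.12 under quantile normalization, past the threshold no longer. Got2 was higher in BAT by 0.40 (standard error 0.15, adjusted p = 0.0288), but passed in only 11 of 21 alternative fits. It fell short of the threshold without BAT control replicate 3 (0.38) and without gWAT control replicate 3 (0.28) or 4 (0.34). The same held with quantile normalization (0.21), spike-in scaling (0.17) and the slide as a block (0.33). Control BAT replicates 1 to 3 shared no slide with a gWAT array. With the slide as a block, Gpt2 (-4.89), Aldh18a1 (-1.755), Got1 (1.61) and Glul (1.67) still passed. Asns (0.25), Prodh (-0.15) and Glud1 (0.28) were not past the threshold. Asns passed as higher in BAT with Actb and Rplp0 scaling (0.59), and Glud1 with that scaling (0.61), as the mean of its probes (0.36) and without gWAT control replicate 4 (0.36, adjusted p = 0.0283).

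Over the 4 groups, the order of levels differed from gene to gene. Aldh18a1 was lowest in control BAT, followed by gWAT of controls, gWAT labelled KO and KO BAT, with no overlap between neighbours. Got1 had its lowest mean level in gWAT of controls (0.99 ± 1.02, SD, n = 4) and its highest in KO BAT (4.51 ± 0.35, SD, n = 4), while gWAT labelled KO (2.65 ± 0.29, SD, n = 4) overlapped control BAT (2.68 ± 0.079, SD, n = 4). Prodh was at 4.12 ± 0.42 and 4.26 ± 0.39 in BAT and gWAT of controls and at 2.06 ± 0.44 and 2.60 ± 0.34 in the corresponding KO arrays (SD, n = 4 each), and the tissues overlapped within each genotype. Glul was highest in control BAT (7.59 ± 0.44, SD, n = 4) and lowest in KO BAT (5.58 ± 0.30, SD, n = 4), with both gWAT groups between them. The range of Gpt2 in KO BAT (1.25 ± 0.17, SD, n = 4) stayed below that of gWAT in either genotype.

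The directions of the larger differences held under other scalings, but the smaller ones moved. In BAT, spike-in scaling moved the median of all genes to 0.46 and Actb and Rplp0 scaling to -0.67. Under these 2 scalings Aldh18a1, Got1, Got2 and Gpt2 stayed higher and Prodh and Glul lower in KO mice, past the threshold. The share of all called genes that were higher in BAT was 44.6%, but 79.6% with spike-in scaling and 17.6% with Actb and Rplp0 scaling, whereas for the 8 genes the split was 4 higher and 3 lower, 5 and 2, and 4 and 4. In gWAT, 56.0% of all called genes were higher, but 95.3% with spike-in scaling, 71.1% with median centring and 35.9% with the slide as a block. The 8 genes split into 3 higher and 1 lower in gWAT, 4 and 1 with spike-in scaling, which moved the median of all genes to 0.49, and 3 and 4 with quantile normalization. Glul and Glud1 changed sign in gWAT with spike-in scaling, to 0.18 and 0.11, and passed as lower there with quantile normalization (-0.60, adjusted p = 0.0456, and -0.59, adjusted p = 0.0224).

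**Figure D3:**
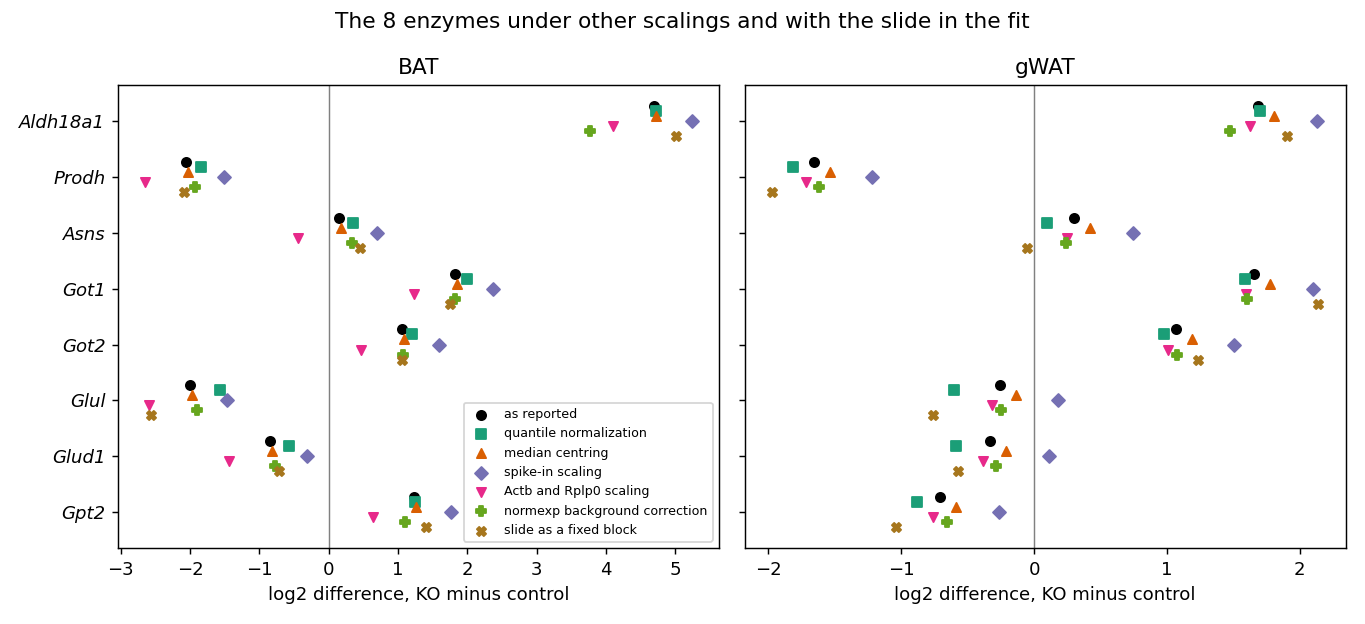
Log2 difference between KO and control arrays (x axis) of the 8 enzymes in BAT and gWAT under the scaling used here, 5 other scalings or background corrections, and with the slide in the fit, each as a symbol. Aldh18a1, Got1 and Got2 lay above 0 and Prodh below 0 throughout, and Asns crossed 0 with Actb and Rplp0 scaling in BAT and with the slide in the fit in gWAT.

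The other genes of these pathways were taken from lists written by hand, with the 8 enzymes left out, and the rises and falls given for them are log2 differences. Their counts stand beside 27.4% of all genes tested higher and 34.0% lower in BAT (median -0.083), and 10.0% higher and 7.86% lower in gWAT (median 0.048). In the glutamine and glutamate list, 14 of 16 genes were tested in BAT, where 5 rose, 7 fell and 2 were not past the threshold, with a median log2 difference of -0.16. Ctps, which makes CTP with nitrogen from glutamine, rose by 2.21 (standard error 0.16, adjusted p = 1.33e-05). Cad, which starts pyrimidine synthesis with glutamine, fell by 1.83 (adjusted p = 4.71e-05), and its dimmer probe, not well above background in control BAT, differed by -0.15. Gfpt2, of the hexosamine pathway, rose by 2.06 (standard error 0.66, adjusted p = 0.0241), but was not past the threshold without BAT control replicate 3 (1.75) or 4 (1.76) or without BAT KO replicate 1 (1.94) or 4 (1.62), nor with the slide as a block (adjusted p = 0.0502). In gWAT, 1 gene of this list rose, 1 fell and 12 were not past the threshold, with a median of 0.037. There Ctps rose by 1.16 (adjusted p = 0.0125), and Abat, which breaks down GABA, fell by 1.90 (adjusted p = 0.00671). Neither passed with the slide as a block (adjusted p = 0.166 and 0.114).

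In the list for proline, ornithine and arginine, 5 of 9 genes were tested in BAT, where 1 rose, 3 fell and 1 was not past the threshold, with a median of -0.84. Aldh4a1, which takes the product of Prodh on to glutamate, fell by 1.71 (standard error 0.16, adjusted p = 4.00e-05). Pepd, a dipeptidase that frees proline, fell by 1.20 (adjusted p = 3.21e-05), and Pycrl, a pyrroline-5-carboxylate reductase, by 0.84 (adjusted p = 5.70e-04). The gene of this list that rose in BAT was Oat, ornithine aminotransferase, by 0.42 (adjusted p = 0.00680), though its difference was -0.17 with Actb and Rplp0 scaling, and it did not pass with the slide as a block (adjusted p = 0.0536). In gWAT, Oat fell by 0.85 (standard error 0.17, adjusted p = 0.0143), and the other 5 genes tested there were not past the threshold. The median over all 6 was 0.29. With the slide as a block Oat did not pass in gWAT (adjusted p = 0.132).

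In the aspartate and asparagine list, 10 of 11 genes were tested. In BAT, 1 rose, 5 fell and 4 were not past the threshold, with a median of -0.36. Nat8l, which makes N-acetylaspartate, fell by 4.08 (standard error 0.16, adjusted p = 1.75e-06), and Aspa, which cleaves it, fell by 1.39 (adjusted p = 3.52e-05). Ass1, which joins citrulline and aspartate, rose by 1.01 (adjusted p = 0.0292), but not past the threshold without BAT control replicate 4 (0.73) or without BAT KO replicate 2 (0.94) or 3 (0.78). In gWAT, 4 rose, 1 fell and 5 were not past the threshold, with a median of 0.19. Aspg, an asparaginase, rose there by 3.16 (standard error 0.66, adjusted p = 0.0165) and Adssl1, an adenylosuccinate synthase, by 2.01 (adjusted p = 0.00669). Aga, a lysosomal enzyme of glycoprotein breakdown, rose by 0.76 (adjusted p = 0.0196), but not past the threshold without gWAT control replicate 2 (0.71) or without labelled KO replicate 1 (0.70) or 3 (0.72). With the slide as a block none of these 3 passed in gWAT (adjusted p from 0.0668 to 0.326).

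Among the mitochondrial carriers and other enzymes of the malate-aspartate shuttle, in which Got1 and Got2 also act, 6 of 7 genes were tested. In BAT, 2 rose and 4 fell, with a median of -0.51. The 2 that rose were the aspartate and glutamate carriers. Slc25a12 rose by 2.58 (standard error 0.19, adjusted p = 1.82e-05). Slc25a13 was not well above background on any BAT control array. By its brighter probe it was at least 1.94-fold higher in KO mice, the bound being set against the dimmest signal well above background. Gls2, a glutaminase of the glutamine and glutamate list, was likewise at least 1.46-fold higher in KO BAT. Both genes entered the BAT test only through the KO arrays, so their p-values are not given. The counts of genes that rose in BAT include them. Their dimmer probes, not well above background on any BAT array, differed by -0.28 and -0.39. The list medians were -0.51 and -0.16 with these genes at their bounds. Slc25a11, the carrier of malate and 2-oxoglutarate, fell by 1.04 (adjusted p = 9.32e-05). In gWAT, 3 rose, none fell and 3 were not past the threshold, with a median of 0.61. Slc25a22, a glutamate carrier, rose by 1.15 (adjusted p = 0.0196), which did not pass without labelled KO replicate 3 (adjusted p = 0.0508). Slc25a12 (0.87, adjusted p = 0.0445) and the mitochondrial malate dehydrogenase Mdh2 (0.72, adjusted p = 0.0410) passed in 1 and 2 of the 8 fits that left out an array. Slc25a12 passed when gWAT control replicate 1 was left out, and Mdh2 when gWAT control replicate 4 or labelled KO replicate 4 was. With the slide as a block none of the 3 passed (adjusted p from 0.134 to 0.501).

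In the list of the amino acid response, in which ATF4 and its known targets stand, all 10 genes were tested. In BAT, 8 rose, none fell and 2 were not past the threshold, with a median log2 difference of 2.85, where 27.4% of all genes tested rose and the median of all was -0.083. Psat1, of serine synthesis, rose by 4.89 (standard error 0.17, adjusted p = 8.89e-07). Trib3, a pseudokinase, rose by 4.31 (adjusted p = 5.59e-06) and Chac1, which breaks down glutathione, by 3.85 (adjusted p = 6.99e-05). Atf4 itself rose by 1.64 (adjusted p = 8.19e-05). In gWAT, 4 rose, none fell and 6 were not past the threshold, with a median of 0.94, where 10.0% of all genes tested rose and the median of all was 0.048, and Atf4 differed by 0.034 (adjusted p = 0.952). Trib3 rose there by 2.85 (adjusted p = 0.00475), and the transcription factors Atf5 and Ddit3 by 1.79 (adjusted p = 0.00296) and 1.64 (adjusted p = 0.0103). None of these 3 passed in gWAT with the slide as a block (adjusted p from 0.0915 to 0.124). The list kept the sign of its median under the other scalings in both tissues (2.26 to 3.39 in BAT, 0.85 to 1.38 in gWAT). In BAT, the median of the other lists was below 0 as reported, but with spike-in scaling it was 0.39 for glutamine and glutamate, 0.18 for aspartate and asparagine and 0.033 for the carriers. In gWAT, the median for glutamine and glutamate was -0.021 with quantile normalization and -0.020 with Actb and Rplp0 scaling.

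**Figure D4:**
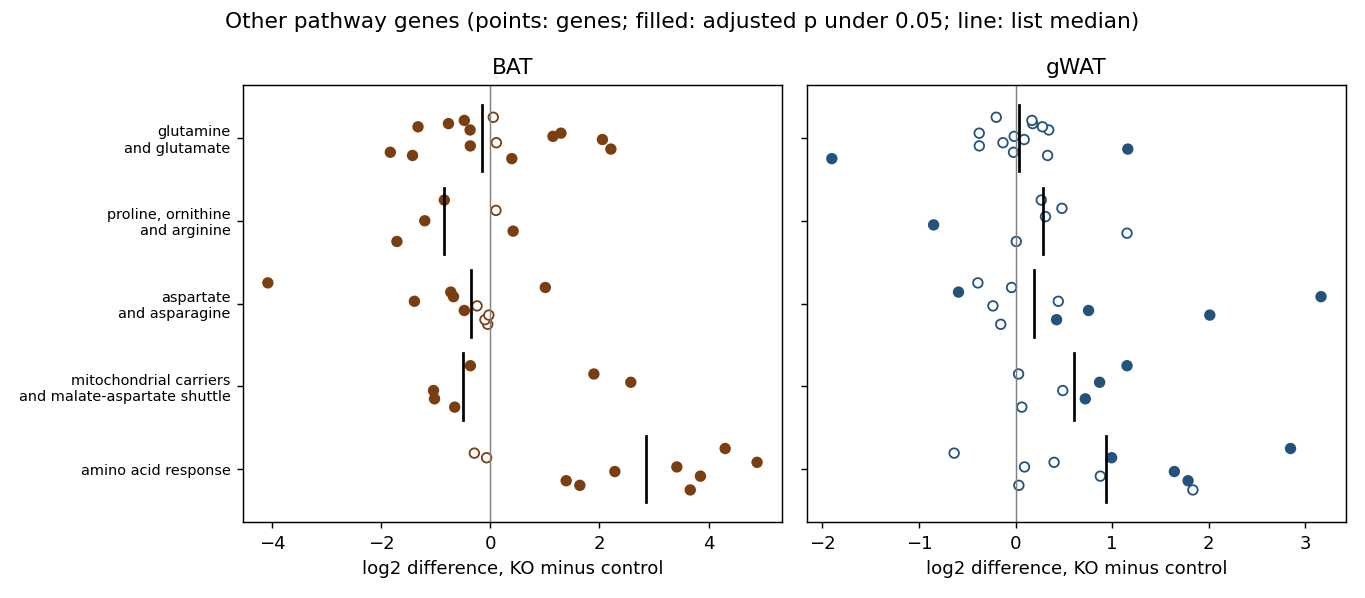
Log2 difference between KO and control arrays (x axis) for the genes of 5 lists around the 8 enzymes, in BAT and gWAT. Each point is a gene, filled where it passed an adjusted p of 0.05 in limma, and the vertical line is the median of the list. In BAT the median of the amino acid response list was 2.85, and those of the other 4 lists lay between -0.84 and -0.16.

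Markers of several cell types moved with the genotype in BAT. Their counts stand beside 27.4% of all genes tested higher and 34.0% lower in BAT, and 10.0% higher and 7.86% lower in gWAT. The summed level of 8 adipocyte markers, as signal over the 75th percentile, was 2655 to 3155 in control BAT and 829 to 1176 in KO mice, and all 8 fell. Of these, Lep and Pparg passed in only 4 and 3 of the 8 fits that left out an array, and Lep was 0.099 with spike-in scaling. That of 8 brown adipocyte markers went from 2393 to 2562 down to 893 to 1402, and 6 of 8 fell. In the same arrays, 8 macrophage markers summed to 28.2 to 39.3 in controls and 88.9 to 131 in KO mice, with 6 of 8 higher, and 5 fibroblast markers to 131 to 182 and 216 to 351, with all 5 higher. In gWAT, the adipocyte markers summed to 2344 to 3670 in controls and 1965 to 2779 in gWAT labelled KO, with 1 of 8 lower, and the brown adipocyte markers to 6.19 to 11.0 and 49.6 to 137, with 3 of the 5 tested higher. Cidea made most of these brown adipocyte sums, at a mean log2 level of 2.85 in controls and 6.26 in gWAT labelled KO. The next highest were Ppargc1a in controls (-0.57) and Otop1 in labelled KO (1.69). Ucp1 and Zic1 were not well above background on any gWAT control array. In gWAT labelled KO, Ucp1 was well above background on 3 of the 4 arrays and Zic1 on none. The mean log2 level of Ucp1 was -5.63 in gWAT controls and -1.58 in gWAT labelled KO. Macrophage markers in gWAT summed to 69.5 to 96.8 and 69.2 to 181, with 1 of 8 higher, and no fibroblast marker passed. The medians of the macrophage, fibroblast, adipocyte and brown adipocyte lists in BAT kept their signs under quantile, spike-in and Actb and Rplp0 scaling, while that of the adipocyte list in gWAT was 0.31 with spike-in scaling and -0.13 as reported. Endothelial markers did not pass in either tissue, and 1 of 3 lymphocyte markers tested was higher in KO BAT. This was Cd3g, well above background on only 1 BAT control array, which entered the test only through the KO arrays. Skeletal muscle markers summed to 43.2 to 50.2 in control BAT and 7.33 to 105.7 in KO mice, with replicate 1 the highest, and to 16.3 to 42.0 and 38.9 to 66.9 in gWAT. In control BAT, Myl1 made most of the sum, at a mean log2 level of 5.41, with Mb next at 1.24. Epididymis markers summed to at most 0.111 on any BAT array and at most 1.87 on any gWAT array, and none was tested. The part of these markers in the values of the 8 enzymes was not tested. In such bulk samples, fewer cells of a type and less RNA per cell cannot be told apart.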

How the data were processed

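Total RNA was labelled with Cy3 and hybridized to 1-colour arrays. The amount of RNA per array differs between the labels and the paper's methods. The authors deposited Agilent Feature Extraction 10.7.1.1 signal intensities with the local background subtracted, and a table of normalized values, whose median difference from these intensities over the 75th percentile of each array was 0.0012 to 0.0050 in log2, over the probes at or above that percentile. Here the deposited intensities were scaled in that way, and log2 was taken. Control spots and spots flagged as outliers were left out, and no spot was saturated. RefSeq accessions (GRCm38.p6) gave 32994 of 35886 probes that carry one (91.9%) a symbol. A gene entered a test if all 4 arrays of some group compared had its brightest probe well above background. limma 3.58.1 in R 4.3.3 was used on the arrays of 1 tissue, or on all 16 arrays for the interaction and the depots, with Benjamini-Hochberg adjustment over all genes tested. The code was tested on simulated data. Alternatives were other scalings, background corrections, filters, probe rules, blocks for slide and replicate number, another test, and each array left out. The enzymes, the lists and the rules were chosen with earlier results of these data known. From each list the text names up to 3 genes per tissue, those with the largest absolute log2 change past the threshold, and 3 genes of likest pattern per enzyme. Gls2, Atf4 and Oat in BAT, and the marker genes named, were chosen after their values were seen. Some results are not reported here.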

Additional observations from a re-analysis of the deposited data

Results flagged for a closer look

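Of 36 sets of 4 arrays, each a gene in a group, 2 held an array far from the other 3 by Dixon's test, and chance gives about 1 in 20. They were Glul in KO BAT, where replicate 2 was at 5.13 and the others between 5.73 and 5.74, and Got2 in the same group, where replicate 3 was at 3.87 and the others between 3.56 and 3.60. The calls for both genes in BAT held without these arrays.

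The genotype difference itself differed between the tissues, by the interaction in limma, in 4 of the 8 enzymes and in Pgam1. It did so in 48.3% of the 14820 genes tested, so that such a difference was common. The change in gWAT minus the change in BAT was -3.01 for Aldh18a1, 1.75 for Glul, 0.52 for Glud1, -1.94 for Gpt2 and 2.69 for Pgam1. Because each gWAT direction rests on a label that the level of Pgam1 goes against, so do these values. With the gWAT labels turned, chosen after seeing the data and given with no test, they would be -6.38, 2.27, 1.18, -0.52 and 0.79, and Prodh, Got1 and Got2 would stand at 3.71, -3.48 and -2.12. In the same gWAT arrays, 3 of the 5 brown adipocyte markers tested were higher in those labelled KO than in controls, against 10.0% of all genes tested. Cidea and Otop1 rose by 3.41 and 4.24 (limma, adjusted p = 0.00126 and 0.00265), and Elovl3 by 4.35. Elovl3 was well above background on 3 of the 4 gWAT control arrays, and so entered the test only through the arrays labelled KO. Elovl3 passed in 5 of the 8 fits that left out 1 array, and not with the slide as a block (6.51). Ppargc1a (-0.52) and Prdm16 (0.11) did not pass, and Ucp1, Dio2 and Zic1 were not tested in gWAT. Ucp1 was well above background on 3 of the 4 gWAT arrays labelled KO and on no gWAT control array.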

How the results depend on the processing

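Of the 8 enzymes, 7 passed in BAT and 4 in gWAT, 4 in the interaction and 5 between depots. Of all genes tested, 61.4%, 17.9%, 48.3% and 67.7% passed in these comparisons. The count in gWAT was 7 with quantile normalization and 1 with the slide as a fixed block, and the depot count was 3 with quantile normalization. The count over all genes in gWAT moved as well, from 2527 to 3219 and 184 under these settings. Between depots it was 9680, and 9774 with quantile normalization. Leaving out 1 array gave 7 in BAT each time, 3 to 4 in gWAT, 3 to 4 in the interaction and 4 to 5 between depots. Over all genes tested, these fits called 7870 to 8707 in BAT and 1145 to 3240 in gWAT. In the interaction they called 6502 to 7595, and between depots 9120 to 9443. In BAT, 106 of 112 values under other settings kept direction and side of the threshold, and in gWAT 95 of 112. The cause of the changes was not tested.

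Directions reversed in these cases, none of them past the threshold as reported except the interaction of Glud1. In BAT, Asns was -0.44 with Actb and Rplp0 scaling. In gWAT, Asns was -0.050 with the slide as a block, Glul 0.18 with spike-in scaling and 0.15 as the mean of its probes, and Glud1 0.11 with spike-in scaling. In the interaction, Asns was -0.26 with quantile normalization, -0.097 with normexp and -0.50 with the slide as a block. Glud1 was -0.010 with quantile normalization. Got1 was 0.36 with Actb and Rplp0 scaling and 0.39 with the slide as a block. Got2 was -0.22 with quantile normalization and -0.086 with spike-in scaling. On leaving out 1 array, the interaction ran from -0.51 to 0.28 for Got1 and from -0.11 to 0.16 for Got2. Between depots, Asns was -0.17 and Glud1 -0.20 with quantile normalization, and Prodh 0.19 with Actb and Rplp0 scaling.

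With the replicate number as a block, 7 enzymes passed in BAT, 3 in gWAT, 3 in the interaction and 4 between depots. Over all genes tested, 8606, 1082, 6861 and 9018 passed with this block. Same-numbered arrays did not deviate together throughout (correlations from -0.14 to 0.43 between genotypes and from -0.19 to 0.29 between tissues), and the labels do not say that a number marks 1 mouse. Between tissues, 6 of 8 same-numbered pairs were over 0.1, so a pairing there was neither shown nor excluded. The block ended the calls of Glud1 in the interaction (adjusted p = 0.0539) and of Got1 in gWAT (adjusted p = 0.0503) and Got2 between depots (adjusted p = 0.0931). The methods' t-test called 7 in BAT before and after Benjamini-Hochberg adjustment, and 5 and 3 in gWAT. After adjustment it called 8422 of all 14285 genes tested in BAT and 1621 of 14150 in gWAT.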

Other observations

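The genes whose pattern over the 16 arrays was most like that of each enzyme were taken as those with the smallest root mean square difference of log2 levels, each gene centred on its own mean, among 12359 genes well above background on all arrays. The points share arrays and groups, and the measure is a description. Nearest to Aldh18a1 were Ccdc92 (0.48), Gadd45a (0.49) and Ntn1 (0.54), against a median of 1.87 over all genes compared. Gadd45a is known as a gene induced by growth arrest and DNA damage, and it differed by 5.22 in BAT and 1.39 in gWAT. Nearest to Prodh were Bnip3 (0.40), of mitochondrial turnover, Ivd (0.40), of leucine breakdown, and Agbl3 (0.42). Nearest to Glul were Dock3 (0.21), Rgcc (0.25) and the transcription factor Foxo1 (0.26).

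Nearest to Got1 were the thiamine transporter Slc19a2 (0.51), Ddit3 (0.52) and Sh3bgrl2 (0.57), and nearest to Got2 were Pcgf6 (0.22), Ttf2 (0.23) and Mettl1 (0.26). Nearest to Gpt2 were Heph (0.29), the ferroxidase hephaestin, Trf (0.33), transferrin, and Clmp (0.39), against a median of 2.09. Heph was, like Gpt2, lower in BAT than in gWAT of controls, by a log2 difference of -4.77. Near to Asns were Gpn1 (0.14) and 0610010K14Rik (0.15), and nearest to Glud1 were Zfp943 (0.11), Ogfod3 (0.11) and Spop (0.13).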
